A study of Mus musculus with 23 samples.

Results

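The 9 genes described here are the electron partners and heme makers that cytochromes P450 need in liver, and each was chosen by its name on the array. They are *Por*, *Cyb5a*, *Cyb5r3* and *Pgrmc1* on the electron side and *Alas1*, *Alad*, *Urod*, *Cpox* and *Fech* on the heme side, 9 of the 21056 genes with a usable signal. Liver RNA was measured on Agilent 1-colour arrays, 1 array per mouse, in 23 male C57Bl6/J mice. The 4 groups were wild-type mice given corn oil (WT CONT, 6 mice), wild-type mice given pregnenolone 16α-carbonitrile (WT PCN, 5 mice), and *Pxr*-/- mice given corn oil (*Pxr*-/- CONT, 6 mice) or PCN (*Pxr*-/- PCN, 6 mice). PCN is a steroid ligand of the rodent nuclear receptor PXR, and *Pxr*-/- mice lack that receptor (gene *Nr1i2*). PCN was injected into the peritoneum once a day at 100 mg/kg for 4 days in the same corn oil, and livers were collected at ZT6, in a semi-fasted state, with the last dose given 6 h earlier. The study describes 6 mice in every group, and 5 WT PCN arrays were available. Mice were acclimatised for 2 weeks and then allocated to groups at random. WT mice were bought at 6 weeks of age, whereas *Pxr*-/- mice, backcrossed to the same strain, had been bred in the facility for 10 years. Genotype and colony therefore cannot be told apart, and the age of the *Pxr*-/- mice was not given in the sources used here.

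Cytochromes P450 of the endoplasmic reticulum oxidise drugs and steroids with electrons taken from NADPH and a heme at their active site. Cytochrome P450 oxidoreductase (POR) passes these electrons on, and cytochrome b5 (*Cyb5a*), reduced by cytochrome b5 reductase (*Cyb5r3*), can give some of the P450s their second electron. PGRMC1 is a heme-binding membrane protein related to cytochrome b5 that associates with P450s. Heme is built from glycine and succinyl-CoA, first by ALAS1, the rate-limiting enzyme in liver, then through ALAD, UROD and CPOX, and ferrochelatase (FECH) inserts the iron. Ligands of PXR and of its relative CAR are known to raise *Por* and *Alas1* together with the P450s of rodent liver.

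The promoters of *Por* and *Alas1* are shown because these are the members that rose most after PCN. They are the 250 bases before a RefSeq transcription start (build GRCm38.p6), for *Por* chr5:135688895-135689144 on the plus strand and for *Alas1* chr9:106247955-106248204 on the minus strand. Capitals mark matches to the GC box GGGCGG on either strand.
*Por*: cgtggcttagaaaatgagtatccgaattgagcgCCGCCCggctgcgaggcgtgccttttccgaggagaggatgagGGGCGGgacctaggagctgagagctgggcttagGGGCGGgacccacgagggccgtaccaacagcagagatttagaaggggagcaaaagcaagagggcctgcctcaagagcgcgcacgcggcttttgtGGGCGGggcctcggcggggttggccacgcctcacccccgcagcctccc
*Alas1*: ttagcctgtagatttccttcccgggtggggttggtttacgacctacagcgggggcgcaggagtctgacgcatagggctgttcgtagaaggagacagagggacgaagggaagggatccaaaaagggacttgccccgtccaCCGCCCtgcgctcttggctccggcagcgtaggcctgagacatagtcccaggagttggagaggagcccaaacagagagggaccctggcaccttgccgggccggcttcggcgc
*Por* held 4 GC boxes, starting 217, 175, 142 and 48 bases before the start, and *Alas1* held 1, at 111 bases. A second *Alas1* window, before a start further downstream, held 0. The GC box was found in 32.7% of all 32851 promoters of the same length, so its presence sets neither gene apart. Promoters were found for 6 of the 9 genes, in 8 windows, and in none of these 8 was there a direct repeat of AGNTCA spaced by 3 bases (AGNTCANNNAGNTCA) or 4 bases (AGNTCANNNNAGNTCA), or an everted repeat spaced by 6 bases (TGANCTNNNNNNAGNTCA). These are layouts at which PXR is known to bind, and they occurred in 0.0517%, 0.103% and 0.0304% of all promoters. None of the 8 windows held a TATAAA, against 12.4% of all promoters. The 2 *Alad* windows and that of *Urod* held the CCAAT box (33.8% of all promoters) and the E-box CACGTG (6.02%).

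The array carried 15 probes for the 9 genes, of which 13 were kept, with at least 1 for every gene. All 13 were well above background on all 23 arrays and none was saturated. The probes set aside were 1 of *Alad*, above background on 0 of 23 arrays, and 1 of *Cyb5r3*, above it on 7. Signals are log2 values normalized between arrays, and each gene was read from its brightest kept probe. A probe was called when its Benjamini-Hochberg adjusted p from limma was at most 0.05 and its fold change above 1.5, and a gene when any kept probe was called. Over all arrays, between 29510 and 33321 of 56605 probes were above background, and pairs of arrays correlated between 0.977 and 0.996. *Cyp3a11*, the prototypical PXR target, rose by 3.55 ± 0.23 (log2, SE; adjusted p 4.12e-10, limma) in WT mice, and its PCN response differed between genotypes by 3.24 ± 0.31 (adjusted p 1.23e-06, limma). *Cyp2b10* rose by 6.76 ± 0.70 in WT mice and its response differed by 5.19 ± 0.96. The *Nr1i2* probe, at chr16:38248745-38248804 (mm9), did not separate the genotypes (*Pxr*-/- CONT minus WT CONT −0.03 ± 0.28, adjusted p 0.977, limma). Whether it lies in the deleted part of the gene was not given in the sources used here, so it is no check of the labels. The 6 hepatocyte markers had mean log2 signals of 17.0 or more on every array.

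After PCN in WT mice, 3 of the 9 genes rose, *Por*, *Alas1* and *Cyb5r3*, and 0 fell. Of all genes tested, 4.25% rose and 2.83% fell. By the adjusted p alone, with no limit on the fold, *Cyb5a* and *Pgrmc1* were also higher and *Urod* was lower, making 5 higher and 1 lower, against 13.6% and 14.8% of all genes. Thus all 4 electron partners were higher by that measure, while among the heme genes only *Alas1* was. For *Cyb5r3* at its brighter probe this depended on single arrays and on the processing, as given below. In *Pxr*-/- mice, 1 member rose after PCN, *Por*, and 0 fell (all genes, 1.6% and 0.95%). By the adjusted p alone *Por* and *Cyb5a* were higher, against 3.92% of all genes higher and 4.36% lower. The median change of the 9 genes was 0.31 in WT and 0.19 in *Pxr*-/- mice (log2), beside −0.02 and −0.01 over all genes.

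**Figure D1:**
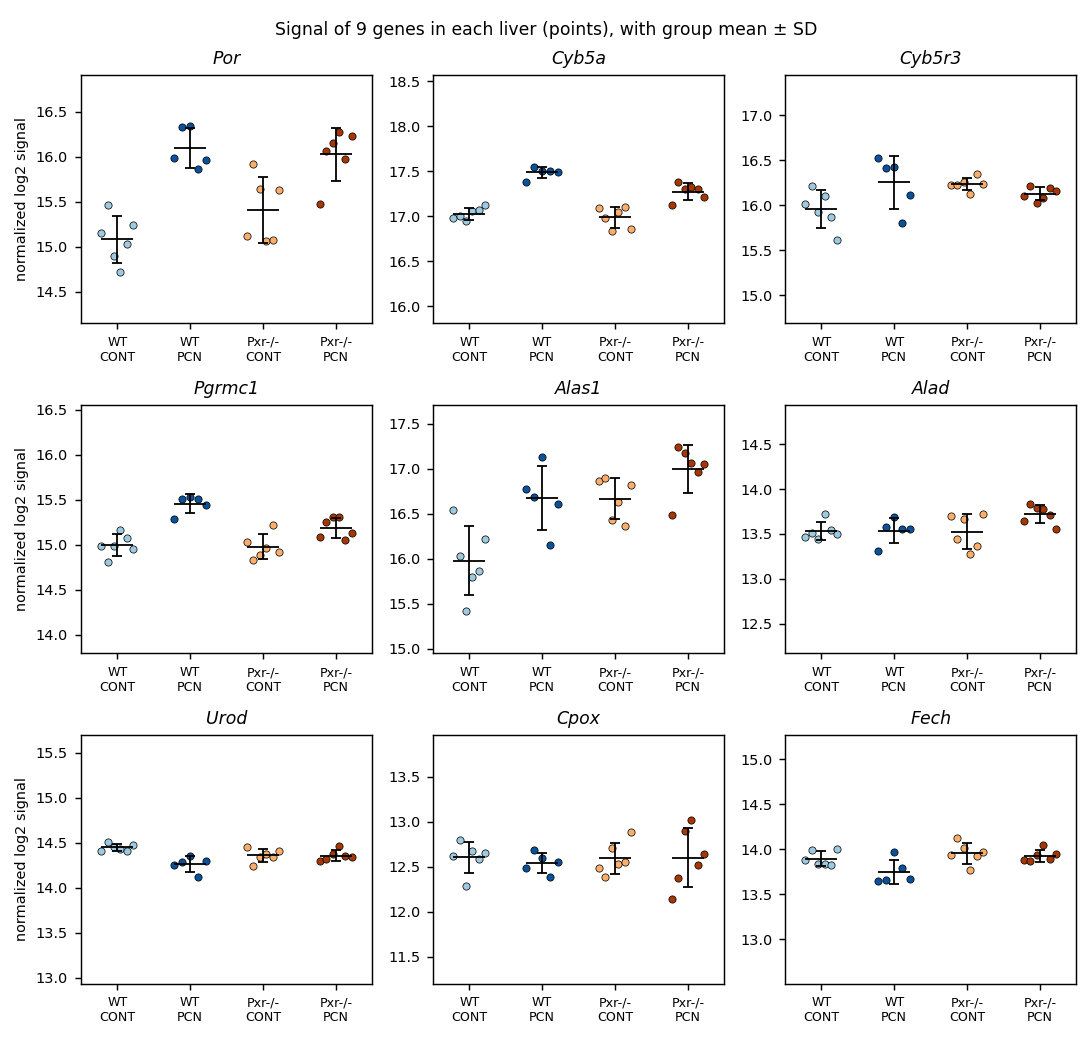
Normalized log2 signal of the 9 genes in every liver (y axis, the same span in each panel) by group (x axis), 1 point per mouse, with bars for the group mean ± SD. All 5 WT PCN points lie above all 6 WT CONT points for *Por*, *Cyb5a* and *Pgrmc1* and below them for *Urod*, while *Cpox* and *Alad* overlap in every group. The share of all genes without overlap was not computed.

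*Por*, the flavoprotein that hands NADPH electrons to the P450s, was read at chr5:136211116-136211175 (mm9). Its log2 signal in WT CONT livers ran from 14.72 over a median of 15.09 to 15.46, and the 5 WT PCN livers gave 15.98, 16.34, 16.34, 15.86 and 15.96. The WT groups did not overlap. The rise was 1.04 ± 0.16 (log2, SE), a 2.05-fold change (adjusted p 9.01e-05, limma). *Pxr*-/- CONT livers ran from 15.06 over 15.38 to 15.92 and *Pxr*-/- PCN livers from 15.47 over 16.11 to 16.28. Here the groups overlapped, because *Pxr*-/- PCN replicate 1 was the lowest of its group at 15.47 and 3 controls reached 15.64 to 15.92. The rise without PXR was 0.62 ± 0.15, or 1.54-fold (adjusted p 0.0168, limma). It sat just above the fold limit, and it was no longer called without *Pxr*-/- PCN replicate 3 (0.57), *Pxr*-/- CONT replicate 4 (0.57), *Pxr*-/- CONT replicate 1 (0.58) or *Pxr*-/- CONT replicate 5 (0.52), although the adjusted p stayed under 0.05 in these fits. When only the *Pxr*-/- arrays were fitted, the adjusted p was 0.0518 (limma). The rise was 0.42 larger in WT than in *Pxr*-/- mice, with a 95% interval from −0.03 to 0.87 (adjusted p 0.396, limma), so a difference between genotypes was not shown. Within washing batches 1 and 2 the WT rise was 0.91 and 1.20 and the *Pxr*-/- rise 0.50 and 0.74.

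*Cyb5a*, the electron carrier cytochrome b5, was read at chr18:85049104-85049163 (mm9). Its WT CONT signals ran from 16.95 over 17.03 to 17.13, and the WT PCN livers gave 17.39, 17.55, 17.50, 17.50 and 17.50. The difference was 0.46 ± 0.06, or 1.37-fold (adjusted p 3.95e-05, limma), with no overlap between groups and below the fold limit. The *Pxr*-/- controls ran from 16.84 to 17.11 and the PCN group from 17.12 to 17.38, again with no overlap, and the difference was 0.29 ± 0.06 (1.22-fold, adjusted p 0.00784, limma). Within batches 1 and 2 it was 0.46 in both for WT and 0.20 and 0.37 for *Pxr*-/- mice. The interaction was 0.17, with a 95% interval from −0.01 to 0.36 (adjusted p 0.389, limma).

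*Pgrmc1*, at chrX:34145797-34145856 (mm9), gave 14.81 to 15.17 in WT CONT livers and 15.28, 15.51, 15.54, 15.51 and 15.45 in WT PCN livers. These did not overlap, and the difference was 0.47 ± 0.08, or 1.38-fold (adjusted p 0.00022, limma). The *Pxr*-/- controls ran from 14.83 to 15.22 and the PCN livers from 15.06 to 15.31, with a difference of 0.21 ± 0.07 (adjusted p 0.0865, limma). The interaction was 0.25, with an interval from 0.03 to 0.47 and an adjusted p of 0.275 (limma). Within batches 1 and 2 the WT difference was 0.40 and 0.54 and the *Pxr*-/- difference 0.21 and 0.22.

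*Cyb5r3*, which reduces cytochrome b5, had 2 kept probes on chromosome 15, and they differed in size of response. At the brighter probe (chr15:82983932-82983991, mm9) the WT CONT livers ran from 15.61 over 15.96 to 16.22 and the WT PCN livers gave 16.52, 16.41, 16.42, 15.80 and 16.11. WT PCN replicates 4 and 5 lay within the range of the controls, and the difference was 0.31 ± 0.11, or 1.24-fold (adjusted p 0.0368, limma). That adjusted p was above 0.05 without any of 6 of the 23 arrays (up to 0.117, limma). Among the alternatives in processing it reached 0.138 (limma). At the dimmer probe (chr15:82992333-82992667, mm9) the controls ran from 9.41 over 9.83 to 10.14 and the PCN livers gave 10.67, 10.73, 10.49, 9.89 and 10.37. The rise there was 0.64 ± 0.15, or 1.55-fold (adjusted p 0.00386, limma), which is what called the gene. That call was lost without WT PCN replicate 1 (1.48-fold), WT PCN replicate 2 (1.48-fold) or WT CONT replicate 6 (1.46-fold). In *Pxr*-/- mice the difference was −0.11 ± 0.10 at the brighter and 0.02 ± 0.14 at the dimmer probe. The interaction was 0.42 (interval 0.12 to 0.72, adjusted p 0.165, limma) and 0.62 (interval 0.19 to 1.05, adjusted p 0.148, limma), so neither passed the correction. Within batches 1 and 2 the WT difference at the brighter probe was 0.21 and 0.44.

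*Alas1*, the first and rate-limiting step, had 3 kept probes on chromosome 9, and all 3 were called in WT mice. At the brightest (chr9:106136284-106136343, mm9) the WT CONT livers ran from 15.42 over 15.95 to 16.54 and the WT PCN livers gave 16.78, 16.69, 17.14, 16.16 and 16.61. The groups overlapped through WT CONT replicate 1, the highest control at 16.54, and WT PCN replicate 4, at 16.16. The rise was 0.70 ± 0.18, or 1.63-fold (adjusted p 0.00674, limma). The other probes gave larger rises, 1.1 ± 0.22 (2.15-fold, adjusted p 0.00109, limma) at chr9:106137803-106137862 and 1.28 ± 0.26 (2.42-fold, adjusted p 0.00114, limma) at chr9:106141046-106141105. In *Pxr*-/- mice the corresponding changes were 0.33 ± 0.17, 0.50 ± 0.21 and 0.64 ± 0.24, with adjusted p of 0.274, 0.162 and 0.120 (limma). *Pxr*-/- PCN replicate 1 was the lowest of its group at all 3 probes. At the brightest probe it gave 16.49, and the other 5 gave 16.96 to 17.24. The interaction at the 3 probes was 0.38, 0.61 and 0.63, with intervals from −0.13 to 0.89, −0.03 to 1.24 and −0.10 to 1.37. Within batches 1 and 2 the WT rise at the brightest probe was 0.57 and 0.90 and the *Pxr*-/- change 0.07 and 0.58.

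**Figure D2:**
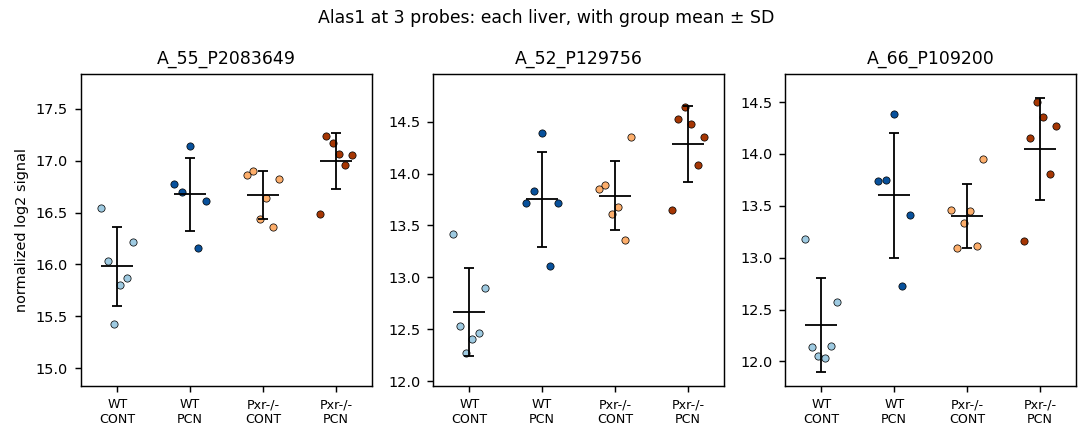
Normalized log2 signal of *Alas1* at its 3 kept probes (panels, with y axes of the same span) in each group (x axis), 1 point per mouse with group mean ± SD. At each probe the WT CONT group is the lowest and the *Pxr*-/- CONT group sits near the WT PCN group.

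The remaining heme genes moved little. *Urod*, uroporphyrinogen decarboxylase, at chr4:116662850-116662909 (mm9), gave 14.41 to 14.51 in WT CONT livers and 14.26, 14.29, 14.36, 14.13 and 14.30 in WT PCN livers. These groups did not overlap, and the difference was −0.18 ± 0.05, or 1.13-fold lower (adjusted p 0.0186, limma), below the fold limit. It was −0.20 and −0.15 within batches 1 and 2, but 0.08 in the authors' normalized values, in which the median probe was itself 0.11 higher in WT PCN livers. The *Urod* difference in *Pxr*-/- mice was −0.00 ± 0.05. *Fech*, ferrochelatase, at chr18:64616928-64616987 (mm9), had a WT difference of −0.14 ± 0.07 (adjusted p 0.134, limma) and a *Pxr*-/- difference of −0.03 ± 0.06. *Alad*, which joins 2 aminolevulinate molecules, at chr4:62170231-62170290 (mm9), had differences of 0.01 ± 0.08 in WT and 0.19 ± 0.08 in *Pxr*-/- mice (adjusted p 0.935 and 0.155, limma). *Cpox*, coproporphyrinogen oxidase, had a WT difference of −0.04 ± 0.11 at its brighter probe (chr16:58680403-58680465, mm9) and 0.01 ± 0.15 at the other, and *Pxr*-/- differences of 0.01 ± 0.11 and 0.06 ± 0.14. For these 4 genes the 95% intervals of the PCN change in WT mice lay between −0.30 and 0.32, and none of them reaches a 1.5-fold change.

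**Figure D3:**
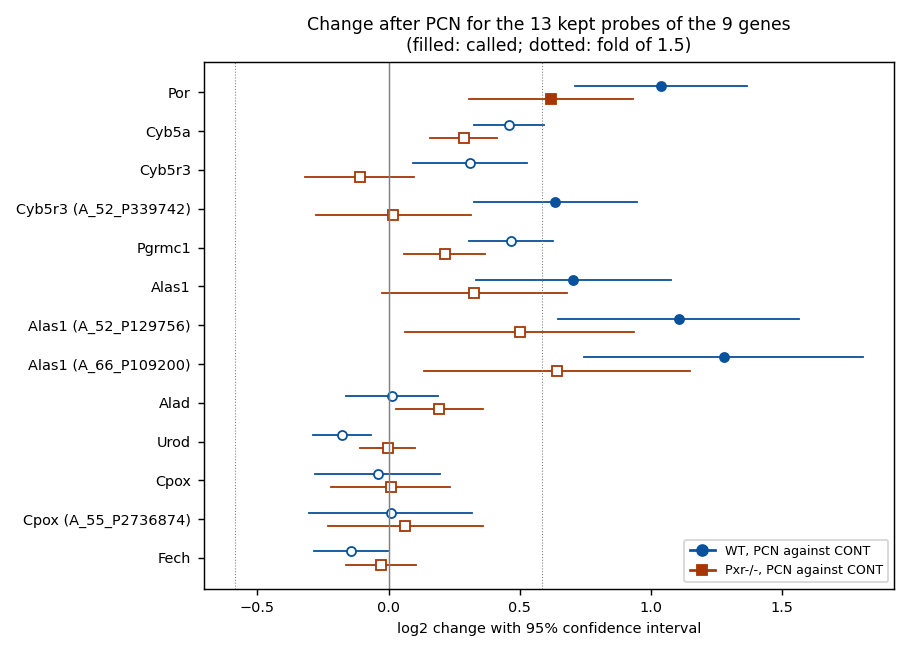
Change after PCN (x axis, log2, with 95% confidence intervals from limma) at the 13 kept probes (y axis) in WT (blue circles) and *Pxr*-/- mice (brown squares). Filled symbols passed both the adjusted p and the fold limit, which dotted lines mark. *Por* is filled in both genotypes, *Alas1* at all 3 probes and *Cyb5r3* at 1 of 2 in WT mice, and the remaining symbols are open.

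The PCN response of 0 members was called different between genotypes, against 0.883% of all genes with a signed change in WT mice above that in *Pxr*-/- mice and 0.29% with one below it. At an unadjusted p under 0.05 (limma), 3 members differed. The signed change in WT mice lay above that in *Pxr*-/- mice for *Cyb5r3* and *Pgrmc1* and below it for *Urod*. The share of all genes at that limit was not computed, so this count has no background to be read against. Comparing the 2 PCN groups, 0 members were called (all genes, 0.841% higher and 1.54% lower in *Pxr*-/- PCN livers). At an unadjusted p under 0.05 (limma), 3 members were higher and 2 lower in *Pxr*-/- PCN livers, again without a share of all genes at that limit. By the adjusted p alone *Cyb5a* and *Pgrmc1* were lower in *Pxr*-/- PCN than in WT PCN livers, against 4.77% of all genes higher and 5.64% lower. The differences were −0.21 ± 0.06 for *Cyb5a* (adjusted p 0.0427, limma), with no overlap between the groups, and −0.27 ± 0.08 for *Pgrmc1* (adjusted p 0.0337, limma). Neither held throughout. When single arrays were left out, the adjusted p was above 0.05 without any of 10 of the 23 for *Cyb5a* (up to 0.113) and any of 7 for *Pgrmc1* (up to 0.0845). With the processed signal the *Cyb5a* difference was −0.08 (adjusted p 0.489, limma), and in the authors' normalized values it was −0.34 and that of *Pgrmc1* −0.55, where the median probe itself was −0.18. Within batches 1 and 2 they were −0.22 in both for *Cyb5a* and −0.26 and −0.29 for *Pgrmc1*. *Por* differed by −0.09 ± 0.16 between the PCN groups, with an interval from −0.42 to 0.24.

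Without PCN, 1 member was called between the genotypes, *Alas1*, higher in *Pxr*-/- CONT than in WT CONT livers, and 0 were lower (all genes, 0.252% and 0.0855%). The call came from the probe at chr9:106137803-106137862, where WT CONT livers ran from 12.27 over 12.50 to 13.42 and *Pxr*-/- CONT livers from 13.36 over 13.76 to 14.35. The groups overlapped there only between WT CONT replicate 1 and *Pxr*-/- CONT replicate 5. The difference was 1.12 ± 0.21, or 2.18-fold (adjusted p 0.0121, limma). At the brightest probe it was 0.69 ± 0.17 (1.61-fold, adjusted p 0.081, limma) and at the third 1.05 ± 0.24 (2.07-fold, adjusted p 0.0582, limma), both short of the threshold over all probes. Without WT CONT replicate 1, these became 0.82 (adjusted p 0.0214, limma) and 1.25 (adjusted p 0.00948, limma). The third probe was also called without WT PCN replicate 4, WT PCN replicate 3 or *Pxr*-/- PCN replicate 1, which left its difference at 1.05 and moved the adjusted p to between 0.0307 and 0.0454 (limma). Within batches 1 and 2 the difference at the brightest probe was 0.86 and 0.52. Since the WT CONT arrays enter both this comparison and the PCN comparison in WT mice, the values are not independent. *Por* was 0.33 ± 0.15 higher in *Pxr*-/- CONT than in WT CONT livers (adjusted p 0.419, limma) and *Cyb5r3* 0.28 ± 0.10 (adjusted p 0.28, limma).

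The pathway around the 9 genes was described with a list of 40 further genes, of which 38 were on the array by name and 37 were tested. In WT mice 2 rose and 2 fell after PCN, beside 4.25% and 2.83% of all genes, with a list median of 0.01. In *Pxr*-/- mice 0 rose and 2 fell, beside 1.6% and 0.95% of all genes, with a median of −0.03. None of the 10 tested other electron partners was called in any of the 5 comparisons. Their changes ran from −0.26 to 0.51 in WT mice, with 4 of the 10 above 0. By the adjusted p alone some did change, in both directions. Those named here are examples, and their number was not set against the share of all genes. *Cyb5rl* was 0.51 ± 0.08 higher after PCN in WT mice (adjusted p 0.00012, limma), without overlap. It was 0.35 ± 0.08 lower in *Pxr*-/- PCN than in WT PCN livers (adjusted p 0.00961, limma), also without overlap. *Cyb5b* was lower after PCN in *Pxr*-/- mice (−0.33 ± 0.08, adjusted p 0.0206, limma). *Pgrmc2* was lower after PCN in WT mice (−0.26 ± 0.09, adjusted p 0.0387, limma) and in *Pxr*-/- mice (−0.47 ± 0.08, adjusted p 0.00298, limma).

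Of the 11 genes of heme synthesis transport and control, *Ppargc1a*, a coactivator known to drive *Alas1* in the fasted liver, fell in both genotypes. In WT livers it dropped from 9.10 ± 0.44 (SD, n = 6) to 7.91 ± 0.17 (n = 5), and the 5 PCN livers, at 7.63 to 8.04, lay below all controls. The change was −1.20 ± 0.18 in WT mice (adjusted p 9.88e-05, limma) and −0.96 ± 0.18 in *Pxr*-/- mice (adjusted p 0.0031, limma), again with no overlap between groups. It was 0.60 ± 0.18 higher in *Pxr*-/- PCN than in WT PCN livers (adjusted p 0.0498, limma), a call that was lost without any of 17 of the 23 arrays. *Nr1d1*, a heme-binding clock repressor, changed by −0.78 ± 0.27 in WT mice (adjusted p 0.0417, limma) and −0.69 ± 0.26 in *Pxr*-/- mice (adjusted p 0.112, limma), and its WT call was lost without any of 8 arrays.

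Of the 8 tested genes of heme breakdown and transport, *Hmox1*, the heme oxygenase that opens the heme ring, had a log2 signal of 11.11 ± 0.24 (SD, n = 6) in WT CONT and 11.71 ± 0.29 (n = 5) in WT PCN livers. It rose by 0.59 ± 0.19 (1.51-fold, adjusted p 0.0304, limma). That call was lost without WT CONT replicate 1 (0.51), WT CONT replicate 5 (0.54), WT PCN replicate 3 (0.47), WT PCN replicate 4 (0.56) or *Pxr*-/- CONT replicate 1 (0.58). In *Pxr*-/- mice the *Hmox1* change was 0.51 ± 0.18 (adjusted p 0.0994, limma). All 8 genes of this list had changes above 0 in WT mice, with a median of 0.16, beside 45.6% of all genes and a median of −0.02. In *Pxr*-/- mice 6 of the 8 did, with a median of 0.19, beside 46.9% of all genes and a median of −0.01.

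NADPH feeds POR, and of 4 genes of NADPH supply *Pgd*, 6-phosphogluconate dehydrogenase, had a log2 signal of 10.50 ± 0.16 (SD, n = 6) in WT CONT and 11.27 ± 0.39 (n = 5) in WT PCN livers, without overlap. The rise was 0.79 ± 0.13 (1.73-fold, adjusted p 0.000187, limma), the change in *Pxr*-/- mice was −0.06 ± 0.12, and the interaction of 0.85 ± 0.18 was called (adjusted p 0.0143, limma). *Pgd* was the only gene among the 9 members and the 37 tested pathway genes whose PCN response was called different between genotypes. *Me1*, malic enzyme, fell in *Pxr*-/- mice by 1.03 ± 0.24 on the log2 scale (adjusted p 0.0119, limma) and changed by 0.07 ± 0.25 in WT mice, and the interaction of 1.11 had an adjusted p of 0.116 (limma).

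**Figure D4:**
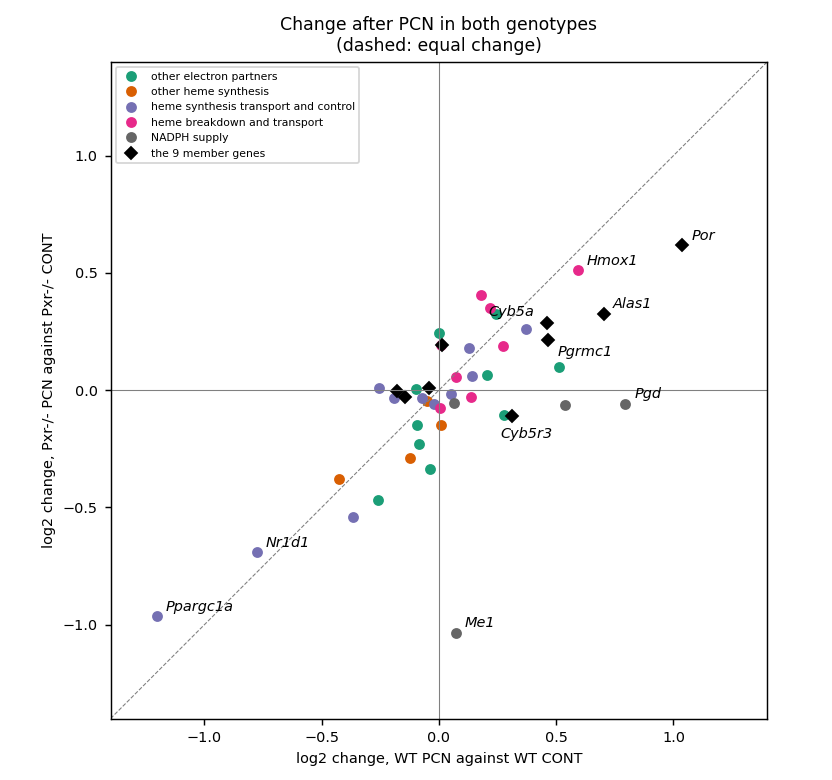
Log2 change after PCN in WT mice (x axis) against that in *Pxr*-/- mice (y axis), 1 point per gene, for the 9 members (black diamonds) and 37 pathway genes (circles, coloured by list), with a dashed line for equal change. *Por*, *Alas1*, *Cyb5a*, *Pgrmc1* and *Cyb5r3* lie to the right of that line, *Pgd* lies near 0.79 on the x axis and near 0 on the y axis, and *Ppargc1a* is low on both.

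Erythroid precursors also make heme, and in whole liver fewer cells of a type and less RNA per cell cannot be told apart. Of 8 erythroid markers 5 were tested, and the others were not above background. The log2 of the summed erythroid signal was 16.14 to 17.68 in WT CONT, 16.35 to 17.05 in WT PCN, 16.57 to 17.62 in *Pxr*-/- CONT and 16.05 to 17.47 in *Pxr*-/- PCN livers, so the groups overlapped. Nearly all of that sum came from *Hba-a1*, which ran from 16.12 to 17.65 in WT CONT livers, while *Hbb-b1* ran from 9.88 to 11.84. *Tfrc*, the transferrin receptor that brings iron into cells, was the 1 erythroid marker that rose in WT mice (1.41 ± 0.28, adjusted p 0.00111, limma), and it is not particular to those cells. Only 1 of the 5 tested erythroid markers had a change above 0 in WT mice (median −0.09), beside 45.6% of all genes. In *Pxr*-/- mice it was also 1 of the 5 (median −0.29), beside 46.9% of all genes. Of 5 cholangiocyte markers *Sox9* rose in WT mice by 0.76 ± 0.21, and the mean log2 signal of the 5 was 7.24 to 8.47 in WT CONT and 8.07 to 8.73 in WT PCN livers. Changes after PCN were above 0 for 4 of the 5 in WT mice (median 0.73), beside 45.6% of all genes. In *Pxr*-/- mice 0 were called, and 4 of the 5 were above 0 (median 0.62), beside 46.9% of all genes. Between WT PCN and WT CONT, 0 of the Kupffer, endothelial, stellate and lymphocyte markers were called. Of the 6 hepatocyte markers 0 were called between these groups. *Apoa1* rose by 0.62 ± 0.10 after PCN in *Pxr*-/- mice, and *Tat* was 0.73 ± 0.22 higher in *Pxr*-/- PCN than in WT PCN livers. *Ttr* was called in this last comparison, as higher, though not at its brightest probe. It was also called in the interaction, again not at that probe, with a signed PCN change in WT mice below that in *Pxr*-/- mice. *Sox9* was 0.76 ± 0.21 lower in *Pxr*-/- PCN than in WT PCN livers. The part of other cell types in the changes of the 9 genes was not tested.

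Across all 23 arrays, the genes whose signals ran most like that of *Por* were *Esr1*, *Pla2g6*, *Brca1*, *Sema3f* and *Susd6*, among 15098 genes with RefSeq names. Likeness was the root-mean-square difference of the centred log2 signals, which was 0.25 for *Esr1* and 0.30 for *Susd6*, while *Por* itself varied by 0.50 about its own mean. *Esr1* changed by 0.99 in WT and 0.64 in *Pxr*-/- mice. For *Alas1* the closest were *Rdh5*, *Col20a1*, *Fbxo36*, *Gm3696* and *Rhbdd2*, at 0.33 to 0.34, against 0.47 for its own variation, so no gene followed it as closely as *Esr1* followed *Por*. These are descriptions over 23 arrays that share groups and batches.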

How the data were processed

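Gene expression was measured in livers of 23 mice with 1-colour Agilent arrays. The labels give Agilent Feature Extraction 10.10.1.1 and limma for the submitters' processing. The deposited scanner files give each spot's intensity (linear) with quality flags and no normalization between arrays. The authors also deposited normalized log2 values, made from filtered median signals with a correction for washing batch and CrossNorm.

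Here, log2 median signals were used, 2225 outlier spots were dropped as missing values, and repeat spots were averaged per probe. A probe entered the fit if, in some group, the majority of arrays measured it well above background (32087 of 56605 probes, 21056 genes, 83 missing values), and signals were quantile normalized. All 23 arrays entered 1 fit in limma 3.58.1 (R 4.3.3) with terms for group and washing batch (18 residual degrees of freedom), and p-values were adjusted with Benjamini-Hochberg over all probes. Each of the 2 batches held 3 arrays of every group, except 2 of WT PCN in batch 2. Each array is a separate mouse per the labels. Before normalization, WT PCN arrays were on average 0.14 (log2) brighter than WT CONT and *Pxr*-/- PCN arrays 0.045 brighter than *Pxr*-/- CONT. The fit was also run on simulated arrays with independent noise and known shifts in the WT PCN group only. That run does not bear on changes smaller than those shifts or on the interaction.

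Probe coordinates are those of the files (mm9), and exon or UTR annotation of that build was not used here. Promoters came from RefSeq (GRCm38.p6). The rule for named genes took all members, pathway genes called in any comparison, the 5 genes most like *Por* and *Alas1*, and the check genes *Cyp3a11*, *Cyp2b10* and *Nr1i2*. *Cyb5rl*, *Cyb5b* and *Pgrmc2* were named outside this rule, for their changes by the adjusted p alone. Some cell type markers, such as *Tfrc*, *Hba-a1* and *Sox9*, were also named outside it. Results for some listed genes are not reported here. Members and lists were chosen with earlier results of these data known. Alternatives were the processed signal scaled to the 75th percentile, normexp (offset 50), the authors' values, no filter, no batch term, slide or replicate blocks, only the groups compared, 1 probe per gene, and leaving out each array.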

Additional observations from a re-analysis of the deposited data

Results flagged for a closer look

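Single livers were compared with the others of their group at the 13 kept probes, and 2 of 52 sets stood out, where chance alone gives about 1 in 20. *Alad* was highest in WT CONT replicate 4, at 13.72, with a gap to the next liver of 0.641 of the group's range. *Alas1* at its brightest probe was lowest in *Pxr*-/- PCN replicate 1, at 16.49, with a gap of 0.631 of the range, and that liver also had the lowest *Por*, *Cyb5a*, *Cpox* and *Urod* signal of its group.

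The PCN response differed between genotypes by the interaction test for *Pgd* (0.85), *Cyp3a11* (3.24) and *Cyp2b10* (5.19) on the log2 scale, and for 0 of the 9 members.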

How the results depend on the processing

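The 5 counts of members called were recomputed under each alternative. After PCN in WT mice the count was 2 to 4 (3 as reported). It was 4 with the authors' normalized values, where *Pgrmc1* (0.71) was also called, and 2 from 1 probe per gene, where *Cyb5r3* was lost. Leaving out single arrays gave 2 to 3. After PCN in *Pxr*-/- mice it was 1, but 0 when only the groups compared were fitted, and 0 to 1 when single arrays were left out. Between the control groups it was 1, also without any single array, but 0 from 1 probe per gene, and at the brightest probe *Alas1* was called with the processed signal (0.83, adjusted p 0.0492, limma). The counts for the interaction and for *Pxr*-/- PCN against WT PCN were 0 under every alternative run, and 0 to 0 when single arrays were left out. The interaction needs all 4 groups, so it has no fit of only the groups compared. The authors' values shifted the median of all probes to 0.11 for PCN in WT mice, −0.11 for *Pxr*-/- CONT against WT CONT and −0.18 for *Pxr*-/- PCN against WT PCN, and called 1577 genes higher and 303 lower in the first of these, against 895 and 595 here and 1221 and 1198 with the processed signal.

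Of the changes in single genes under the alternatives, 1715 kept their direction and call, 54 changed sign, 45 lost and 3 gained a call. All those that changed sign were small and not called. With the processed signal they were for PCN in *Pxr*-/- mice *Cpox* −0.022, for the interaction *Cpox* 0.022 and for *Pxr*-/- CONT against WT CONT *Cyb5a* 0.099, *Pgrmc1* 0.076, *Alad* 0.035 and *Cpox* 0.063. With normexp background correction they were for PCN in *Pxr*-/- mice *Cpox* −0.0050 and for *Pxr*-/- CONT against WT CONT *Cpox* 0.011. With the authors' normalized values they were for PCN in WT mice *Urod* 0.081, *Cpox* 0.14 and *Fech* 0.081, for PCN in *Pxr*-/- mice *Urod* 0.036 and *Fech* 0.0066, for the interaction *Urod* 0.045, *Cpox* 0.094 and *Fech* 0.074, for *Pxr*-/- CONT against WT CONT *Fech* −0.042 and for *Pxr*-/- PCN against WT PCN *Alad* −0.10, *Urod* −0.22, *Cpox* −0.22 and *Fech* −0.12. When single arrays were left out, the ranges that crossed 0 were for PCN in WT mice *Alad* −0.015 to 0.061, for PCN in *Pxr*-/- mice *Urod* −0.023 to 0.021, *Cpox* −0.076 to 0.084 and *Fech* −0.060 to 0.014, for the interaction *Cpox* −0.13 to 0.038, for *Pxr*-/- CONT against WT CONT *Pgrmc1* −0.066 to 0.011, *Alad* −0.049 to 0.040 and *Cpox* −0.059 to 0.016 and for *Pxr*-/- PCN against WT PCN *Por* −0.14 to 0.0085 and *Cpox* −0.051 to 0.12. The cause of these shifts was not tested. In the pathway list, *Hmox1* in WT mice lost its call with normexp (0.57) and with no filter on dim probes (0.59), and *Nr1d1* in WT mice with the authors' values (−0.63), with no filter (−0.77) and without the batch term (−0.75).

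Same-numbered replicates were not treated as paired, since in no pair of groups did every correlation of their deviations exceed 0.1. Over 33 pairs the range was −0.17 to 0.61, with 13 above 0.1. Of these, 4 of 6 lay between WT CONT and *Pxr*-/- CONT (0.27 to 0.61) and 4 of 6 between *Pxr*-/- CONT and *Pxr*-/- PCN (0.13 to 0.27). With the replicate number as a block the counts of members called were 3, 1, 0, 1 and 0, in the order of the 5 comparisons, as without it (*Alas1* between the control groups included). With the 8 slides as a random block the member counts were also 3, 1, 0, 1 and 0, at an estimated correlation of 0.0095. Arrays give no molecule counts, so precision is limited by 5 or 6 arrays per group and, for the dimmer probes, by signal over background.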
